A study of Mus musculus with 12 samples.

Results

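The 9 genes described here encode the structural proteins of the basement membrane that parietal endoderm secretes. They are Lama1, Lamb1 and Lamc1 (laminin chains), Col4a1 and Col4a2 (type IV collagen chains), Nid1 and Nid2 (nidogens), Hspg2 (perlecan) and Sparc. They were chosen by name as the main proteins of this matrix, not by their values in these arrays, although results of these data were already known when the list was made. All 9 were measured, each by 1 probe set, among 19938 named genes, and all 9 passed the filter on dim genes, which left 12988 genes tested.

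RNA came from R1 cells, a mouse embryonic stem cell (ESC) line grown on mouse embryonic fibroblasts (MEFs) that mitomycin had stopped from dividing. Smarcd1, which encodes the BAF60a subunit of SWI/SNF (BAF) chromatin remodelling complexes, was knocked down in the lines labelled KD1 and KD2, and control cells carried a scrambled construct. The 12 arrays formed 5 groups. Retinoic acid KD1 (4 arrays) and retinoic acid scrambled (2 arrays) were kept in 1 µM retinoic acid without leukemia inhibitory factor (LIF) and are labelled as differentiated for 4 days. ESC KD2, ESC KD1 and ESC scrambled (2 arrays each) were undifferentiated cells in medium with LIF. The labels speak of clones and of biological replicates but do not say how many clones a line held or how cultures were kept apart. The p-values so cover only array-to-array spread, some of which may be technical, and a difference between lines cannot be told apart from the knockdown.

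A basement membrane is a thin sheet of matrix under epithelial and endothelial cells. Laminin trimers of 1 α, 1 β and 1 γ chain assemble into a mesh, type IV collagen forms a separate network, and nidogens and perlecan join the networks. In the mouse embryo, parietal endoderm cells lay down an unusually thick membrane of this kind, Reichert's membrane, between themselves and the trophoblast. Embryonal carcinoma cells given retinoic acid and cyclic AMP are a classical culture model of parietal endoderm, and secretion of laminin and type IV collagen is one of its marks.

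Sequences at or upstream of the starts are shown for the members found in RefSeq's promoter table (GRCm38.p6). Col4a1 and Col4a2 are shown around their starts, because they changed side by side and lie head to head. For the others the bases before the start are shown. Of the 9 members, 6 had an entry. Lama1, Lamc1 and Nid2 are named only. Col4a1 (minus strand) and Col4a2 (plus strand) start on chromosome 8 at 11312826 and 11312805, 21 bases apart, and are read in opposite directions. The bases around both starts, chr8:11312801-11312830 on the plus strand, are printed with capitals from the start of Col4a2 to the start of Col4a1. Each gene is read from its start into the capitals, so these bases lie downstream of both starts, not upstream.
Col4a2 and Col4a1 starts: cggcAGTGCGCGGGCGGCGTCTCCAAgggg
For the others, only bases before the start and outside the gene's own annotated span are shown, in the gene's reading direction. Capitals mark a GC box (GGGCGG, on the other strand CCGCCC) or a CCAAT box (CCAAT, on the other strand ATTGG). The windows are chr12:31265043-31265145 (plus strand) for Lamb1, chr13:13437352-13437601 (plus) for Nid1, chr4:137468553-137468750 (plus) for Hspg2 and chr11:55420081-55420330 (minus) for Sparc.
Lamb1: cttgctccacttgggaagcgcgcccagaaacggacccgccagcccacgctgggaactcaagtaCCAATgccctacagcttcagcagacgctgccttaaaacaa
Nid1: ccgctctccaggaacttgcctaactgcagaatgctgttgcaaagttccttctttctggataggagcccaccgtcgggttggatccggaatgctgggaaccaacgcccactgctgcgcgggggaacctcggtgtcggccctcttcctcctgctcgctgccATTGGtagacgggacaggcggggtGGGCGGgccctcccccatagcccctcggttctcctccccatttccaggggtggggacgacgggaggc
Hspg2: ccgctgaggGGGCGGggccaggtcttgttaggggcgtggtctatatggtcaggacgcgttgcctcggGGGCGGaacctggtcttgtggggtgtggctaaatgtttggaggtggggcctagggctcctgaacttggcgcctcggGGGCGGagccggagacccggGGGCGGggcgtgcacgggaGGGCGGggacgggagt
Sparc: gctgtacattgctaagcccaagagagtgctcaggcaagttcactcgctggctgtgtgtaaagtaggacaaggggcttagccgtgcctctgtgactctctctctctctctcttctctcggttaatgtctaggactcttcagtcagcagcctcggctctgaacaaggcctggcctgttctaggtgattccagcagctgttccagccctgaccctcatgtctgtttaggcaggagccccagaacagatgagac
Over the 250 bases before each start, a GC box was found in 4 of the 6 members' windows (Hspg2, Col4a2, Lamb1 and Nid1) and in 32.7% of all 32851 windows in the table. Hspg2 held 5 of them. A CCAAT box was found in 4 of 6 (Col4a1, Col4a2, Lamb1 and Nid1) and in 33.8% of all windows. The TATA box letters TATAAA were found in 0 of 6 windows and in 12.4% of all. A GATA motif, searched as AGATAA, was found in 0 of 6 and in 9.99% of all. A SOX motif, searched as AACAAT, was found in 0 of 6 and in 9.42% of all. A retinoic acid receptor half-site, searched as AGGTCA, was found in 0 of 6 and in 14% of all. Each motif was searched on both strands, and 0 pairs of the 14 matches overlapped. A match describes letters only, and its absence says only that these letters are not in this window.

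Values are log2 signals on the submitters' scale, and changes are differences of log2 means with the standard error (SE) from limma. A change was called at a Benjamini-Hochberg adjusted p under 0.05 over all 12988 genes, two-sided. Smarcd1 read 6.36, 6.61, 6.50 and 6.44 in retinoic acid KD1, against 8.84 and 8.64 in retinoic acid scrambled cells. In ESCs it was at 8.56 and 7.16 in KD2 and at 7.75 and 7.78 in KD1, against 8.67 and 8.68 in scrambled cells. The knockdown was called after retinoic acid (-2.26 ± 0.28, limma adjusted p = 0.000152) but in neither ESC line, at -0.81 ± 0.33 in KD2 (0.152) and -0.91 ± 0.33 in KD1 (0.23). Without either KD2 array, or without one of them, the KD1 difference passed (limma adjusted p = 0.00196). Without KD2 replicate 1 the KD2 difference was -1.52 and passed (limma adjusted p = 0.000201). The array labelled KD2 replicate 1 lay near the scrambled level, against its label. The KD2 arrays also matched each other least, with a correlation over genes of 0.918, where every other pair within a group lay between 0.984 and 0.994. Both KD2 arrays enter the pooled spread of every test, so results are also given without them where that changes a call. The labels name only R1 ESCs as the cell type and give none to the differentiated cells. Of 18 markers of parietal endoderm, 17 lay above the filter level on each retinoic acid array, all but Prdm1, and 16 to 18 did so on the ESC arrays, so detection alone did not separate the groups. Gata4 averaged 10.72 in retinoic acid KD1 and 6.38 in retinoic acid scrambled arrays, and Sox17 averaged 8.97 in retinoic acid KD1 and 5.67 in retinoic acid scrambled arrays.

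After retinoic acid, the matrix genes were far higher in KD1 cells than in scrambled cells. The change was called higher for 8 of the 9 members, against 11.2% of all genes tested called higher, and the groups did not overlap for any of the 9, against 26.5% of genes not overlapping in that direction. The median change of the members was 2.43 log2 units, and that of all genes was -0.02. Lama1, Col4a1 and Col4a2 differed by more than 10-fold, and Nid2, Sparc and Hspg2 by the least. In bulk RNA, more cells of a type and more RNA per cell cannot be told apart.

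The laminin α1 chain is largely restricted to early embryonic and a few epithelial basement membranes. Lama1 read 12.04, 12.32, 12.55 and 12.44 in retinoic acid KD1, against 8.31 and 8.05 in retinoic acid scrambled arrays. All 4 KD1 arrays lay well above both scrambled ones, and the difference of 4.16 ± 0.27 was 17.8-fold (limma adjusted p = 1.01e-06). Lamb1 and Lamc1 encode the β1 and γ1 chains, which pair with α1 and with several other α chains and are made by many cell types. Lamb1 read 12.26, 12.51, 12.65 and 12.63 in retinoic acid KD1, against 10.00 and 10.17 in retinoic acid scrambled arrays. This was a rise of 2.43 ± 0.19 (limma adjusted p = 3.76e-06). Lamc1 read 11.96, 12.21, 12.59 and 12.53 in retinoic acid KD1, against 9.61 and 9.69 in retinoic acid scrambled arrays. Its rise was 2.67 ± 0.29 (limma adjusted p = 5.32e-05). Within the KD1 group, replicates 3 and 4 were the higher pair for all 3 chains, by less than the gap to the scrambled arrays.

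The type IV collagen chains α1 and α2 form the trimer found in almost every basement membrane. Their genes overlap at their starts, on opposite strands, in the short stretch printed above. Col4a1 read 11.36, 11.59, 11.75 and 11.53 in retinoic acid KD1, against 7.97 and 7.81 in retinoic acid scrambled arrays, a difference of 3.67 ± 0.22 or 12.7-fold (limma adjusted p = 6.2e-07). Col4a2 read 11.11, 11.34, 11.42 and 11.20 in retinoic acid KD1, against 7.92 and 7.84 in retinoic acid scrambled arrays, a difference of 3.39 ± 0.15 or 10.5-fold (limma adjusted p = 1.09e-07). For both genes replicate 3 was the highest and replicate 1 the lowest of the KD1 arrays. Both lie on chromosome 8, where the median change of the 706 genes tested was -0.31 in the same comparison. With each chromosome's median subtracted on each array, the differences were 4.03 for Col4a1 and 3.75 for Col4a2 (limma adjusted p = 1.09e-06 and 2.36e-07).

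Nidogens are sulfated glycoproteins that bind the laminin γ1 chain and type IV collagen. Nid1 read 9.41, 9.76, 10.94 and 10.52 in retinoic acid KD1, against 7.67 and 7.99 in retinoic acid scrambled arrays. It had the widest spread of the members within the KD1 group (SD 0.70, n = 4), with replicates 3 and 4 above replicates 1 and 2, and it was still higher by 2.33 ± 0.39 (limma adjusted p = 0.00129). Leaving out replicates 3 and 4 gave 1.75, and leaving out replicates 1 and 2 gave 2.90. Nid2 read 11.09, 11.15, 11.17 and 11.20 in retinoic acid KD1, against 9.98 and 10.16 in retinoic acid scrambled arrays, a difference of 1.08 ± 0.21 (limma adjusted p = 0.00289). Nid2 lies on chromosome 14, whose 451 tested genes had a median change of 0.18 here. With chromosome medians subtracted the Nid2 difference was 0.77 and no longer passed (limma adjusted p = 0.057).

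Perlecan is a large heparan sulfate proteoglycan that binds growth factors. Hspg2 read 9.87, 10.12, 10.05 and 9.97 in retinoic acid KD1, against 9.20 and 9.64 in retinoic acid scrambled arrays. The groups did not overlap, but the difference of 0.58 ± 0.30 did not pass (limma adjusted p = 0.207). In the fit without either KD2 array the same difference passed (limma adjusted p = 0.00749), as it did without KD2 replicate 1 or KD2 replicate 2 alone. SPARC is a secreted collagen-binding glycoprotein that is abundant in parietal endoderm. Sparc read 12.39, 12.57, 12.61 and 12.56 in retinoic acid KD1, against 11.02 and 11.38 in retinoic acid scrambled arrays, a rise of 1.33 ± 0.20 (limma adjusted p = 0.000605).

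**Figure D1:**
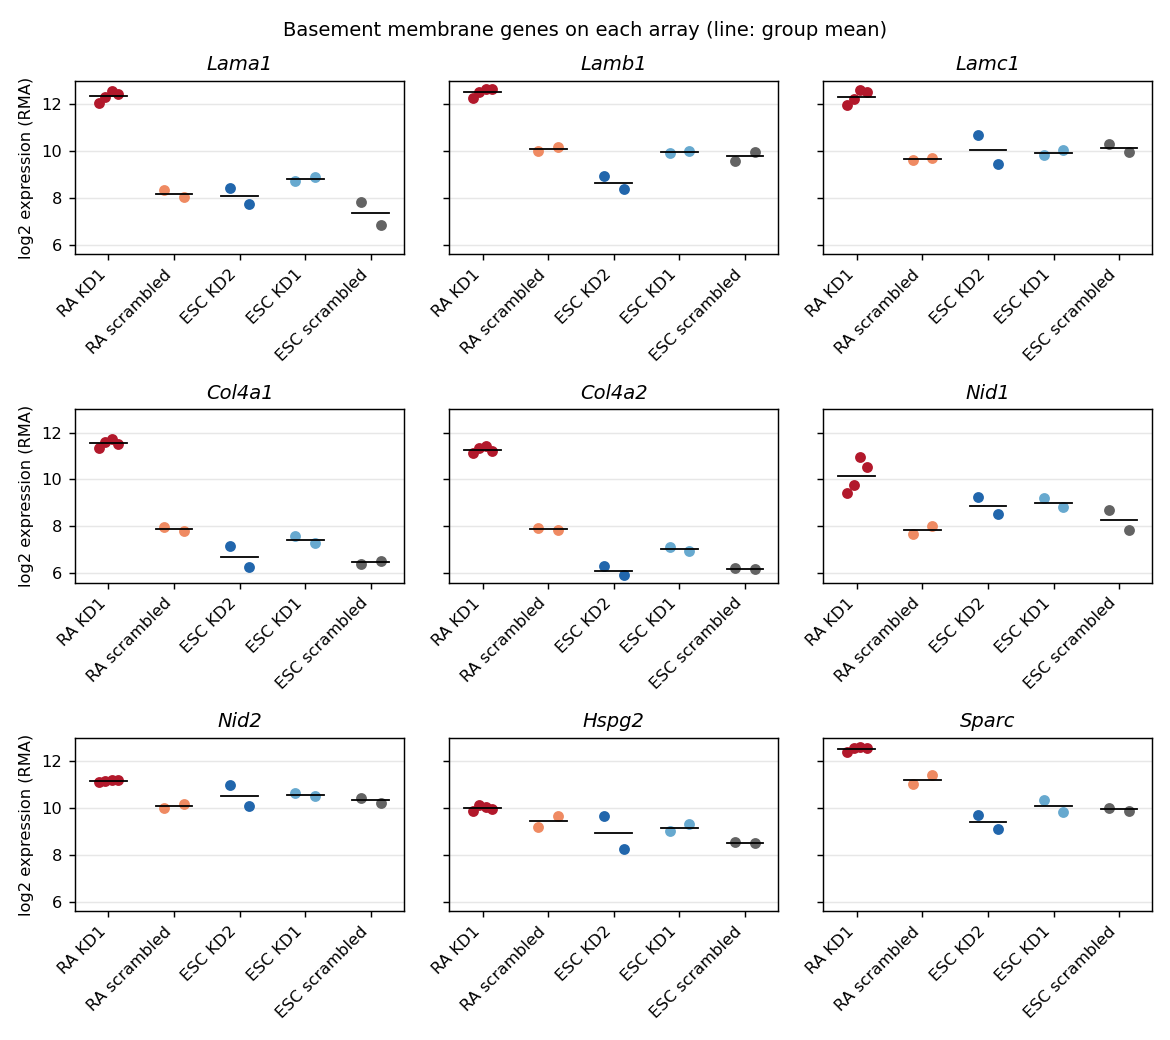
Log2 signal (vertical axis) of each of the 9 genes on each of the 12 arrays, 1 panel per gene, with 1 point per array and a bar at the group mean. The 4 retinoic acid KD1 arrays are above all other arrays in every panel, by a wide gap for Lama1, Col4a1 and Col4a2 and a narrow one for Hspg2 and Nid2.

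Retinoic acid was followed by higher levels of every member in KD1 cells and of fewer in scrambled cells. In KD1 cells all 9 members were called higher after retinoic acid than in ESCs, against 29.4% of all genes, with a median of 2.46. In scrambled cells 4 of 9 were called higher (Lama1, Col4a1, Col4a2 and Sparc), against 22.4% of all genes, with a median of 0.84. The 2 comparisons share no arrays with each other, but each shares a group with the comparison of KD1 with scrambled cells above.

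In KD1 cells the collagen chains moved most. Col4a2 averaged 11.27 ± 0.14 in retinoic acid KD1 (SD, n = 4) and 7.03 ± 0.10 in ESC KD1 (SD, n = 2), a rise of 4.24 ± 0.15 or 18.9-fold (limma adjusted p = 8.8e-09). Col4a1 rose by 4.13 ± 0.22 (limma adjusted p = 1.05e-07) and Lama1 by 3.52 ± 0.27 (limma adjusted p = 1.22e-06). Lamb1, Sparc and Lamc1 rose by 2.55 ± 0.19, 2.46 ± 0.20 and 2.39 ± 0.29, with limma adjusted p of 9.25e-07, 2.26e-06 and 3.67e-05. The smallest rises were those of Nid1 (1.15 ± 0.39), Hspg2 (0.85 ± 0.30) and Nid2 (0.59 ± 0.21), with limma adjusted p of 0.0295, 0.034 and 0.0335. These 3 calls depended on single arrays. Without ESC KD1 replicate 2 the Nid1 rise was 0.96 (limma adjusted p = 0.19), and without ESC KD1 replicate 1 that of Hspg2 was 0.69 (0.204) and that of Nid2 0.66 (0.092). Leaving out the other ESC KD1 array, or retinoic acid KD1 replicate 3 or 4, also ended each of the 3 calls, as did replicate 2 for Hspg2 and replicates 1 and 2 for Nid2. With chromosome medians subtracted the rises were 0.86 for Nid1, 0.73 for Hspg2 and 0.21 for Nid2 (limma adjusted p = 0.1, 0.0867 and 0.517). All 3 calls also ended with cyclic loess normalisation (limma adjusted p = 0.073, 0.132 and 0.135 in the same order).

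In scrambled cells the same treatment gave a different profile. Col4a2 averaged 7.88 ± 0.06 in retinoic acid scrambled and 6.18 ± 0.02 in ESC scrambled arrays (SD, n = 2 each), a rise of 1.69 ± 0.17 (limma adjusted p = 1.9e-05). Col4a1 rose by 1.43 ± 0.25 (limma adjusted p = 0.000981) and Sparc by 1.26 ± 0.23 (limma adjusted p = 0.00125). Lama1 passed narrowly at 0.84 ± 0.31 (limma adjusted p = 0.0489). Its ESC scrambled arrays read 7.83 and 6.86, and without the second of them the change was 0.35 (limma adjusted p = 0.427). Leaving out either retinoic acid scrambled array, either ESC KD1 array or any 1 retinoic acid KD1 array also ended the Lama1 call. Hspg2 changed by 0.92 ± 0.35 (limma adjusted p = 0.0545), and without either KD2 array the same change passed (limma adjusted p = 0.000675), as it did without KD2 replicate 1 or replicate 2 alone. Lamb1 (0.32), Lamc1 (-0.48), Nid1 (-0.44) and Nid2 (-0.25) did not pass, with limma adjusted p between 0.269 and 0.488.

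The difference of the knockdown effects was tested as an interaction, the KD1 effect after retinoic acid minus the KD1 effect in ESCs, which equals the retinoic acid change in KD1 minus that in scrambled cells. It passed for 6 of 9 members, all positive, against 4.27% of all genes positive and called. The values were 2.87 ± 0.44 for Lamc1, 2.70 ± 0.34 for Col4a1, 2.68 ± 0.41 for Lama1, 2.55 ± 0.23 for Col4a2 and 2.23 ± 0.28 for Lamb1, with limma adjusted p between 6.02e-05 and 0.00234. Sparc passed at 1.19 ± 0.31 (limma adjusted p = 0.036), a call that ended without ESC KD1 replicate 2 (0.93, limma adjusted p = 0.177). The Sparc call also ended without either ESC scrambled array, either retinoic acid scrambled array or any of the retinoic acid KD1 replicates 2, 3 and 4. Nid1 (1.59 ± 0.60) and Nid2 (0.84 ± 0.32) did not pass (limma adjusted p = 0.151 and 0.152), and Hspg2 was at -0.07 ± 0.46 (limma adjusted p = 0.963). Without either KD2 array Nid2 passed (limma adjusted p = 0.00531), and the same held without KD2 replicate 1 or replicate 2 alone. Nid1 passed with array weights (1.71, limma adjusted p = 0.0406). Perlecan was the member for which retinoic acid gave nearly the same change in KD1 and scrambled cells, 0.85 and 0.92, and the SE of the difference was 0.46.

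**Figure D2:**
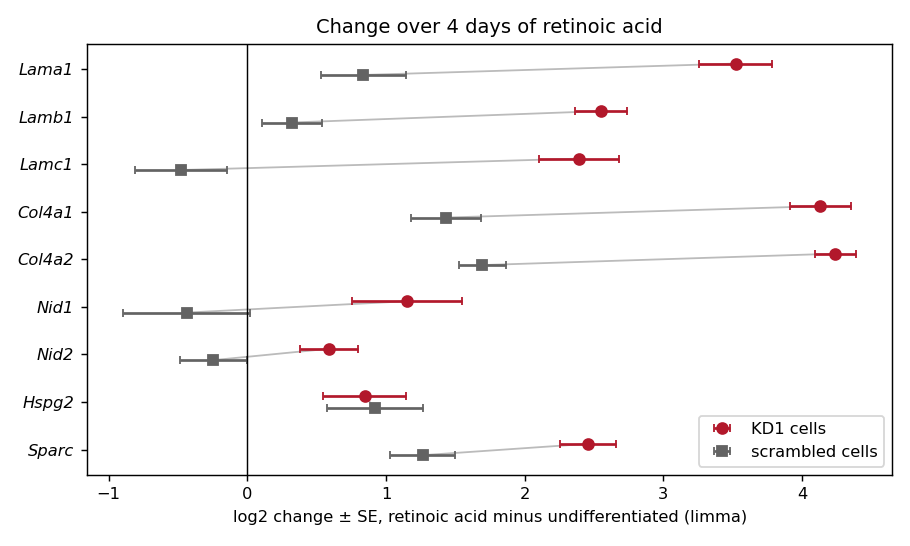
Log2 change over 4 days of retinoic acid (horizontal axis, retinoic acid minus undifferentiated, with the limma SE as bar) for each gene in KD1 cells (red circles) and scrambled cells (grey squares). The circles lie to the right of the squares for 8 genes, from 4.24 against 1.69 for Col4a2 to 0.59 against -0.25 for Nid2, and Hspg2 is the exception.

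In undifferentiated ESCs the KD1 differences were uneven and mostly below those after retinoic acid. They were above 0 for 8 of 9 members, against 6406 of all 12988 genes. The median was 0.65 for the members and -0.004 for all genes. Lama1 and Col4a2 were called higher in KD1 than in scrambled ESCs, 2 of 9 members against 0.909% of all genes. Of the 9, 0 were called lower, against 1.41% of all genes, and 3 had an unadjusted p under 0.05, against 12.8% of all genes. The 2 groups did not overlap for 6 of 9, all higher in KD1, against 25.5% of all genes not overlapping in that direction. Lama1 read 8.73 and 8.90 in ESC KD1, against 7.83 and 6.86 in ESC scrambled arrays, a difference of 1.47 ± 0.31 (limma adjusted p = 0.0304). Col4a2 read 7.10 and 6.96 in ESC KD1, against 6.20 and 6.17 in ESC scrambled arrays, a difference of 0.85 ± 0.17 (limma adjusted p = 0.027). For neither gene did the groups overlap, and chromosome 8 as a whole was at a median of -0.30. Col4a1 was higher by 0.97 ± 0.25 without passing (limma adjusted p = 0.0787). It read 7.58 and 7.27 in ESC KD1, against 6.38 and 6.53 in ESC scrambled arrays, and passed with chromosome medians subtracted (1.38, limma adjusted p = 0.0435) and without either KD2 array (limma adjusted p = 0.00428).

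Both ESC calls depended on single arrays. Without ESC scrambled replicate 2 the Lama1 difference was 0.99 (limma adjusted p = 0.295) and that of Col4a2 was 0.83 (0.199). Leaving out either ESC KD1 array, either retinoic acid scrambled array or retinoic acid KD1 replicate 4 ended both calls, retinoic acid KD1 replicate 2 ended that of Lama1, and ESC scrambled replicate 1 ended that of Col4a2. The Lama1 call also ended with chromosome medians subtracted (1.41, limma adjusted p = 0.0592), where Col4a1 gained its own, and in a fit of only these arrays (0.0693). Without KD2 replicate 1 or replicate 2, in turn or together, 4 members were called higher, Hspg2 among them at 0.65 (limma adjusted p = 0.0322), against 3.21% of all genes called higher in that fit. Nid1 read 9.20 and 8.82 in ESC KD1, against 8.70 and 7.84 in ESC scrambled arrays. Lamb1 read 9.93 and 9.99 in ESC KD1, against 9.58 and 9.95 in ESC scrambled arrays, and these ranges overlapped. The other members did not pass: Hspg2 differed by 0.65 ± 0.35, Nid1 by 0.74 ± 0.46, Nid2 by 0.24 ± 0.24, Lamb1 by 0.20 ± 0.21, Sparc by 0.14 ± 0.23 and Lamc1 by -0.20 ± 0.33, with limma adjusted p between 0.501 and 0.926.

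In KD2 ESCs, Lamb1 was the 1 member called, and it was lower. It read 8.92 and 8.37 in ESC KD2, against 9.58 and 9.95 in ESC scrambled arrays, a fall of 1.12 on the log2 scale with an SE of 0.21 (limma adjusted p = 0.00769). That is 1 of 9 members, against 7.15% of all genes called lower. The call ended without ESC scrambled replicate 2 (-0.94, limma adjusted p = 0.0923), with array weights (0.469) and in a fit of only these arrays (0.355). The other 8 ranged from 0.73 for Lama1 to -0.54 for Sparc, and 0 were called higher by limma, against 2.88% of all genes, with 3 of the 9 members at an unadjusted p under 0.05 in either direction, against 24.1% of all genes. Against KD1 ESCs, Lamb1 (-1.32 ± 0.21, limma adjusted p = 0.0136) and Col4a2 (-0.93 ± 0.17, limma adjusted p = 0.0194) were lower in KD2 ESCs, 2 of 9 against 2.19% of all genes. Both calls ended without ESC KD1 replicate 1 (-1.35 and -0.85, limma adjusted p = 0.12 and 0.187) and without ESC KD1 replicate 2 (limma adjusted p = 0.121 for both).

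The KD2 values rest on arrays that disagree. KD2 replicate 1, which had the scrambled level of Smarcd1, was above replicate 2 for all 9 members. Hspg2 read 9.65 on replicate 1 and 8.22 on replicate 2, and Lamc1 read 10.67 and 9.46. Nid1 read 9.25 and 8.52, Nid2 10.98 and 10.07, and Sparc 9.72 and 9.09. With 1 of them left out, the lone KD2 array is assumed to vary like the arrays of the other groups, and the tests called far more genes of all kinds. Without KD2 replicate 1, 2 members were called lower than in scrambled ESCs (Lamb1, and Sparc at -0.85), against 15.1% of all genes. Without KD2 replicate 2, 4 members were called higher, Lama1 at 1.07, Col4a1 at 0.69, Hspg2 at 1.15 and Nid2 at 0.66, against 7.73% of all genes. Lamb1 was the 1 member called lower there, against 22.8%. For KD2 against KD1, 7 members were called lower without KD2 replicate 1, against 14.2% of all genes. For 5 members (Col4a1, Col4a2, Lamc1, Nid2 and Hspg2) the sign of the difference from scrambled ESCs turned when 1 of the KD2 arrays was left out.

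**Figure D3:**
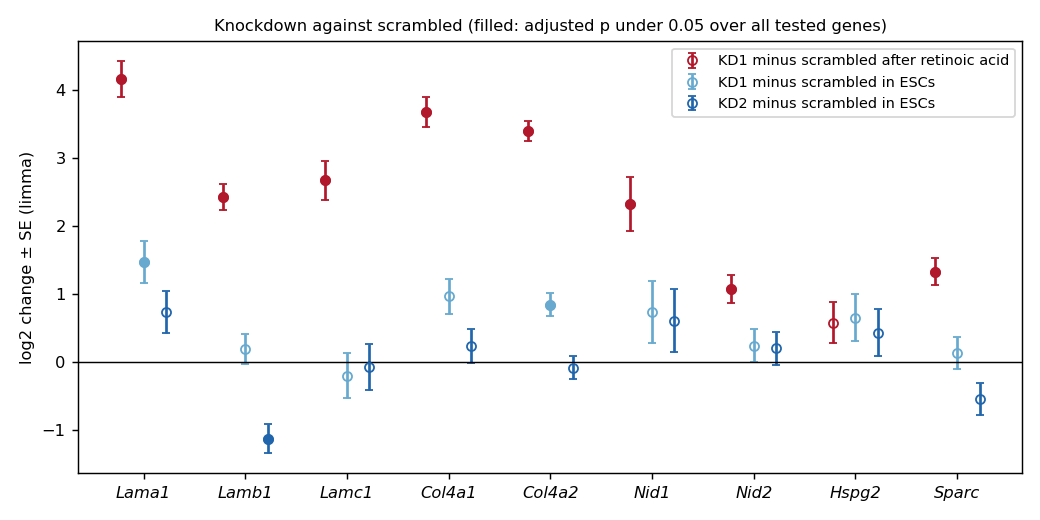
Log2 change of each gene, knockdown minus scrambled (vertical axis, limma estimate with SE as bar), for KD1 after retinoic acid, KD1 in ESCs and KD2 in ESCs. Filled points had a limma adjusted p under 0.05. After retinoic acid the laminin and collagen chains lie between 2.43 and 4.16, whereas in ESCs KD1 does not exceed 1.47 and KD2 lies on both sides of 0.

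Retinoic acid KD1 was the highest of the 5 groups for all 9 members, with no overlap with the next group. Below it the order differed between members. Col4a1, Col4a2, Lamb1, Hspg2 and Sparc had retinoic acid scrambled second, while Lama1, Nid1 and Nid2 had ESC KD1 second and Lamc1 had ESC scrambled second. Retinoic acid scrambled was the lowest group for Lamc1 (9.65 ± 0.06), Nid1 (7.83 ± 0.22) and Nid2 (10.07 ± 0.13; SD, n = 2 each). For Nid1 this place was not resolved, since its range overlapped that of ESC scrambled. For Lamc1 and Nid1 the ranges of the 3 ESC groups chained into one another, so their order was not resolved, and the same held for the 3 ESC groups of Nid2. For Hspg2 each neighbour below the highest group overlapped the next. The mean of the 9 log2 values on each array was 11.28 to 11.75 in retinoic acid KD1, 9.08 and 9.19 in retinoic acid scrambled, 9.0 and 8.18 in ESC KD2, 9.15 and 9.07 in ESC KD1, and 8.66 and 8.43 in ESC scrambled.

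Genes of collagen maturation were mostly higher in retinoic acid KD1 than in retinoic acid scrambled arrays. The list spans hydroxylases, chaperones, export factors and crosslinking enzymes. Of 20 tested, 12 were called higher and 2 lower, with a median of 0.79. The 2 lower were the lysyl oxidases Loxl1 (-1.44 ± 0.28) and Loxl3 (-1.09 ± 0.30). P4ha2 (3.55 ± 0.29) and P4ha1 (2.21 ± 0.22), subunits of the prolyl hydroxylases that stabilise the collagen helix, and the lysyl hydroxylases Plod2 (2.78 ± 0.21) and Plod3 (1.55 ± 0.15) rose most. The other basement membrane genes did not share the members' direction. Of 24 tested, 5 were higher and 7 lower, with a median of -0.04. Egflam (pikachurin, 2.36 ± 0.15) and Ntn4 (a netrin that binds laminin, 1.79 ± 0.26) rose. Frem2 (-2.09 ± 0.24) and Fras1 (-1.80 ± 0.17), partners in a complex of embryonic epithelial basement membranes, fell.

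Among matrix receptors, 3 of 20 were higher and 6 lower, with a median of -0.27. The syndecan Sdc4 rose by 2.37 ± 0.22 and the laminin-binding integrin chain Itga6 by 1.53 ± 0.33. The collagen receptor Ddr1 (-1.83 ± 0.24) and the syndecan Sdc2 (-1.40 ± 0.19) fell. Of 14 genes of matrix proteolysis, 4 were higher and 4 lower, with a median of 0.20. The protease Adamts9 (3.37 ± 0.39) and the inhibitor Timp3 (1.79 ± 0.21) rose, and Mmp2 (gelatinase A, which cleaves type IV collagen, -3.15 ± 0.30) and Adamts1 (-1.61 ± 0.24) fell. Each list was read against 11.2% of all genes called higher and a median of -0.02, and all of these lists were chosen with results of these data known. In ESC KD1 the collagen maturation list had 0 higher of 20, against 0.909% of all genes, and 1 lower, against 1.41%. In ESC KD2 it had 0 higher, against 2.88% of all genes, and 5 lower, against 7.15%.

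**Figure D4:**
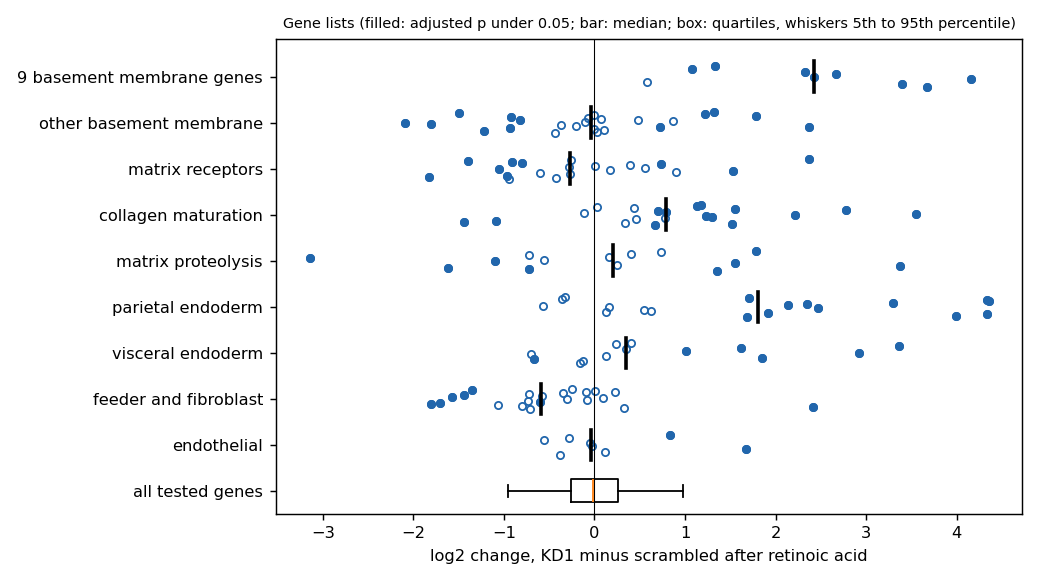
Log2 change in retinoic acid KD1 minus retinoic acid scrambled (limma) of each tested gene of the 9 members and of the other gene lists, 1 point per gene, with the list median as a bar. The members sit between 0.58 and 4.16 with a median of 2.43, above the medians of collagen maturation (0.79) and of other basement membrane genes (-0.04).

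Markers of cell types moved alongside. Of 18 parietal endoderm markers, 11 were higher and 0 lower in retinoic acid KD1 than in retinoic acid scrambled arrays, with a median of 1.81. Of all genes, 11.2% were called higher and 11.5% lower. The transcription factors Sox7 (4.35 ± 0.42) and Gata4 (4.34 ± 0.17), the proteoglycan core Srgn (4.34 ± 0.25) and the activin antagonist Fst (4.00 ± 0.23) rose most. Thbd, another of the 11, averaged 7.09 in retinoic acid KD1 and 5.38 in retinoic acid scrambled arrays. The 7 not called were Krt19 (0.63), Krt8 (0.54), Plat (0.16), Krt18 (0.13), Vim (-0.33), Stra6 (-0.36) and Prdm1 (-0.57). The list's mean log2 value lay at 9.68 to 10.13 in retinoic acid KD1, 8.06 to 8.11 in retinoic acid scrambled, 5.64 to 5.95 in ESC KD2, 6.28 to 6.51 in ESC KD1 and 6.08 to 6.47 in ESC scrambled arrays. In ESC KD1, 3 of the 18 were higher, Srgn (2.77 ± 0.29), Dab2 (2.05 ± 0.23) and Gata6 (1.66 ± 0.27), against 0.909% of all genes. Prdm1 was the 1 lower, against 1.41% of all genes. In ESC KD2, 0 of the 18 were higher, against 2.88% of all genes, and 4 were lower, against 7.15%. The list's median change was -0.36 in ESC KD2 and 0.15 in ESC KD1.

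Of 13 visceral endoderm markers tested, 5 were higher and 1 lower in retinoic acid KD1, against 11.2% of all genes called higher and 11.5% called lower. The median was 0.34, and the 1 lower was Apoe (-0.66 ± 0.17). Rbp4 (3.37 ± 0.18), a retinol carrier, and Foxa2 (2.92 ± 0.21), an endoderm transcription factor, rose, as did the endocytic receptors Cubn (1.85 ± 0.47) and Lrp2 (1.62 ± 0.38). The serum protein genes Afp, Apob and Fgb were below the filter level on every retinoic acid array, and Ttr was above it on 2 of the 4 retinoic acid KD1 arrays. The list's mean was 5.67 to 5.99 in retinoic acid KD1 and 5.11 to 5.21 in retinoic acid scrambled arrays.

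Fibroblasts, present here as feeders, also make these matrix proteins. Of 22 fibroblast genes tested, 1 was higher (Ccn2, 2.42 ± 0.19) and 6 lower in retinoic acid KD1, with a median of -0.59. The shares of all genes were 11.2% called higher and 11.5% called lower. Col1a2 (-1.80 ± 0.32), Col3a1 (-1.71 ± 0.33) and Dcn (-1.58 ± 0.41), which encode interstitial matrix proteins, fell. The other 15 were not called. The list's mean was 6.62 to 6.95 in retinoic acid KD1 and 7.10 to 7.38 in retinoic acid scrambled arrays. Bulk RNA does not tell feeders from differentiating cells that express these genes, and the share of feeder RNA was not tested. In ESCs it was 6.22 to 6.48 in KD2, 6.07 to 6.67 in KD1 and 6.84 to 6.87 in scrambled arrays. Endothelial cells are another source of basement membrane. Of 8 endothelial genes tested, 2 were higher (Eng and Tek) and 0 lower, against the same shares of all genes. Cdh5 was below the filter level on all 12 arrays. The list's mean was 4.73 to 4.97 in retinoic acid KD1 and 4.71 to 4.88 in retinoic acid scrambled arrays.

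The retinoic acid response, neural and mesoderm lists moved mostly the opposite way, and the pluripotency list did not. In retinoic acid KD1 against retinoic acid scrambled arrays, 0 of 20 retinoic acid response genes were higher and 15 lower, 0 of 10 neural genes were higher and 6 lower, and 1 of 13 mesoderm genes was higher and 7 lower, against 11.5% of all genes called lower. The medians were -1.09, -0.87 and -0.67. Of 24 pluripotency genes 8 were higher and 1 lower, against 11.2% of all genes called higher and 11.5% called lower. The median of the pluripotency list was 0.12. The pluripotency list's mean was 6.30 to 6.92 in retinoic acid KD1 and 6.29 to 6.30 in retinoic acid scrambled arrays. Whether the cell types behind these markers have a part in the level of the matrix genes was not tested.

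The pattern of the members over the 12 arrays, taken as the mean after centring each member, was followed most closely by Hs3st1 (Pearson r = 0.995), a heparan sulfate sulfotransferase. B4galnt2, Gata4, Glipr1, Klb, Sox17, Fam163a, Tnfrsf21, Rbp4 and Fst came next, with r between 0.981 and 0.988. For Lama1 alone the closest gene was Klb (0.992), a co-receptor for fibroblast growth factors, and for Col4a1 and Col4a2 it was Gata4 (0.993 for both). For Lamb1 it was Snx25 and then Plod3 (0.989 and 0.987), for Lamc1 Scube2 (0.980), for Sparc Slc39a13 (0.987), for Hspg2 Tead1 (0.977), and for Nid1 and Nid2 Ctsb (0.964) and Plaur (0.965). These coefficients describe 12 arrays that share their groups, so they reflect differences between groups as well as between arrays, and no p is given.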

How the data were processed

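Biotin-labelled total RNA of 12 samples was read on Affymetrix mouse arrays, 1 per sample, and groups follow the sample titles. The authors deposited log2 probe set values made with RMA, per the submitters' processing notes; the sources used here give neither its version nor the genome build. Array medians ran from 4.73 to 5.09, and no further scaling was applied. Of 35556 probe sets, the platform's gene table covered 23410, 21789 with 1 symbol (19938 genes), 1621 with several and 12146 unlisted. Entrez identifiers matched for 21698, and 0 symbols changed. A gene with several probe sets was represented by the one with the highest mean. A gene was tested when above percentile 40 of the named genes (log2 4.46 to 4.63) on at least 2 arrays. The number of arrays limits the precision.

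A group-means model over all 12 arrays was fitted with limma 3.58.1 in R 4.3.3 (7 residual degrees of freedom, prior 4.58) and tested on simulated data. The 7 comparisons were, in ESCs, KD1 minus scrambled, KD2 minus scrambled and KD2 minus KD1. Retinoic acid minus ESC was taken within KD1 and within scrambled cells, KD1 minus scrambled within retinoic acid, and the interaction last. Chromosomes came from RefSeq's gene table, and promoters from its GRCm38.p6 table. Python 3.11.15, pandas 2.3.3, numpy 2.4.6 and matplotlib 3.10.9 prepared tables and figures.

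The members, the gene lists and the tests were chosen with earlier results of these data known. Every member is named in each comparison, and Smarcd1 as the check of the knockdown labels. From the lists described, up to 4 called genes of largest absolute change are named, and for likeness the 10 genes closest to the members' mean and the closest of each member. Genes named for being below the filter level, and Thbd, Gata4, Sox17 and Prdm1 as levels, were named after their values were seen. So were the parietal endoderm markers not called, Eng, Loxl1, Loxl3 and Apoe. Alternatives covered the normalisation, filter, probe set rule, variance model, array weights, arrays fitted, threshold, chromosome medians, a replicate block and each array left out.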

Additional observations from a re-analysis of the deposited data

Results flagged for a closer look

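For 6 of the 9 genes the effect of KD1 differed between retinoic acid and ESCs by limma's interaction test at an adjusted p under 0.05. All were positive, against 4.27% of all genes positive and called. The interaction, KD1 minus scrambled after retinoic acid less the same in ESCs, was 2.87 log2 units for Lamc1, 2.70 for Col4a1, 2.68 for Lama1, 2.55 for Col4a2, 2.23 for Lamb1 and 1.19 for Sparc. The first 5 stayed past the threshold under all 25 alternatives, and Sparc lost the call under 14 of them. All 9 members were higher on each of the 4 retinoic acid KD1 arrays than on either retinoic acid scrambled array, against 26.5% of all genes. This does not set the 6 apart. Dixon's test of single arrays marked no member in the retinoic acid KD1 group of 4, but it cannot show a split into pairs. Nid1 was split so (9.41 and 9.76 on replicates 1 and 2, 10.94 and 10.52 on replicates 3 and 4). Over all tested genes, the median absolute log2 difference was 0.12 between replicates 1 and 2 and 0.11 between 3 and 4. Across these pairs it was 0.16 to 0.17. Whether the 4 arrays are independent was not tested, and if they are not, the SEs may be too small.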

How the results depend on the processing

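For KD1 against scrambled after retinoic acid, 7 to 9 members were called under every alternative, for retinoic acid in KD1 cells 6 to 9, for retinoic acid in scrambled cells 3 to 5, and for the interaction 5 to 8. The number of all genes called changed as well. For KD1 against scrambled after retinoic acid it was 2942 of 12988 in the main fit, 1619 with the replicate block and 4988 with array weights. The ESC counts of members were not stable. For KD1 against scrambled ESCs, 301 of all genes were called in the main fit, 34 with the replicate block and 1148 with array weights. KD1 against scrambled (2 members) gave 0 at an adjusted p under 0.01, with cyclic loess, with the replicate block and without retinoic acid KD1 replicates 1 and 2 or 3 and 4, gave 4 with array weights and without either KD2 array, and ranged from 0 to 4 with single arrays left out. KD2 against KD1 (2 members) gave 0 at an adjusted p under 0.01, with array weights, cyclic loess, the replicate block and only the arrays compared, gave 1 without retinoic acid KD1 replicates 1 and 2 or 3 and 4, and ranged from 0 to 7. KD2 against scrambled (1 member) gave 0 with array weights, cyclic loess and only the arrays compared, and ranged from 0 to 5. The highest counts of both KD2 comparisons came from fits with a KD2 array left out, which called far more genes of all kinds. Signs turned as follows, and the cause was not tested. With single arrays left out, KD2 against scrambled ranged from -0.21 to 0.69 for Col4a1, from -0.26 to 0.10 for Col4a2, from -0.28 to 1.15 for Hspg2, from -0.68 to 0.54 for Lamc1 and from -0.25 to 0.66 for Nid2. KD2 against KD1 ranged from -0.93 to 0.50 for Hspg2, from -0.48 to 0.74 for Lamc1, from -0.49 to 0.24 for Nid1 and from -0.50 to 0.42 for Nid2. KD1 against scrambled ranged from -0.12 to 0.40 for Sparc, and the interaction from -0.29 to 0.14 for Hspg2. With cyclic loess, KD2 against scrambled was 0.0007 for Col4a2 and 0.0556 for Lamc1, and KD2 against KD1 was 0.0397 for Nid2. With chromosome medians subtracted, KD2 against scrambled was 0.29 for Col4a2 and -0.20 for Nid2. Deviations of same-numbered arrays from their group means correlated between groups at r from -0.183 to 0.243, over 0.1 in 3 of 20 pairs. In groups of 2 arrays the deviations mirror each other, so the same r recurs among these pairs. This check cannot exclude a pairing, and the main fit used no replicate block. With the replicate block 8 members were called for KD1 against scrambled after retinoic acid, 6 and 3 for retinoic acid in KD1 and in scrambled cells, 5 for the interaction and 1 for KD2 against scrambled. With 2 arrays in most groups, changes of Hspg2 and Nid2 were small enough for the choice of arrays to decide several of their calls.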
